A study of Mus musculus with 20 samples.

Results

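Horizontal cell genes were followed in bulk RNA-Seq of whole mouse retinas: Gja10, Lhx1, Onecut1, Onecut2, Prox1 and Calb1, which are 6 of the 19716 genes listed in the deposited tables. They were taken by gene symbol, and all 6 were found in the tables of all 4 groups, with a value above 0 in each of the 20 libraries. The members were chosen by their known expression in horizontal cells and by the difference of Gja10 between the OIR groups in these same FPKM values, so differences between the OIR groups are described for these genes and not tested. All mice were C57BL/6J. At postnatal day (P) 17, 5 libraries were from Atf6+/+ mice and 5 from Atf6-/- mice, a germline knockout that affects every cell type. Both P17 groups had gone through oxygen-induced retinopathy (OIR), a model in which pups breathe 75% oxygen from P7 to P12, lose retinal capillaries, and then grow abnormal vessels in room air. At P30, 5 libraries were from wildtype retinas 24 h after a 1 µL intravitreal injection of saline, and 5 were from wildtype retinas injected with 10 µM Ceapin-A7, a small molecule that holds ATF6 in the endoplasmic reticulum. Both solutions held a trace of solvent, but the labels and the methods differ on its concentration, and the methods give a lower one with Ceapin-A7, so a difference in solvent cannot be told apart from Ceapin-A7. Each group held separate whole retinas, but whether each came from a different animal was not given, so p-values measure the spread between these libraries.

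Horizontal cells are inhibitory interneurons whose cell bodies lie at the outer edge of the inner nuclear layer. They receive glutamate from rods and cones through AMPA-type receptors and feed back onto photoreceptor terminals, which sharpens contrast and adjusts gain. Neighbouring horizontal cells are joined by gap junctions into a wide electrical network. Gja10 encodes the connexin that builds these junctions in the mouse, and in the retina its transcript is largely restricted to this cell type. Onecut1 and Onecut2 are homeodomain factors that act early in the lineage, Prox1 promotes the horizontal cell fate, and Lhx1 is a LIM-homeodomain factor needed for the cells to settle in their layer. Calb1 encodes calbindin, a calcium buffer used as a standard stain for the mature cells. Prox1 is also made by AII amacrine cells, bipolar cells and lens fibre cells, Calb1 by some amacrine and ganglion cells, and the Onecut genes by some ganglion cells.

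Because both experiments target ATF6, a bZIP transcription factor, the windows around the starts of the member genes were read from RefSeq (GRCm38.p6) to show what lies upstream of them. Each printed window holds 250 bases before the annotated gene start and 50 after it, 300 in all. Onecut2 is not shown, and Calb1 is named only. The capitals mark TGACGT on either strand, the core of cyclic AMP response elements and of ATF6-type sites, a motif that was chosen after the windows had been read.
Gja10, chr4:32602333-32602632, minus strand: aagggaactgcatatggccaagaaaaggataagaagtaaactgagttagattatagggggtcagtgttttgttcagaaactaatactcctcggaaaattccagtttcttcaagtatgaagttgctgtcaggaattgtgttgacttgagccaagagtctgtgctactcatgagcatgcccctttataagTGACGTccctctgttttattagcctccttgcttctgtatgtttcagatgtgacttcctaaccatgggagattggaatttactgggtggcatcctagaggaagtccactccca
Lhx1, chr11:84525485-84525784, minus strand: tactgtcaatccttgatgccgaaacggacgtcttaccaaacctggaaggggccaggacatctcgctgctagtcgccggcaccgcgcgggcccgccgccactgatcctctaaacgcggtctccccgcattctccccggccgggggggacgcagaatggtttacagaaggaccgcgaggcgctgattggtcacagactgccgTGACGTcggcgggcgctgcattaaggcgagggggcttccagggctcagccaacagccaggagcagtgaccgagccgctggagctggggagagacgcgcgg
Onecut1, chr9:74861671-74861970, plus strand: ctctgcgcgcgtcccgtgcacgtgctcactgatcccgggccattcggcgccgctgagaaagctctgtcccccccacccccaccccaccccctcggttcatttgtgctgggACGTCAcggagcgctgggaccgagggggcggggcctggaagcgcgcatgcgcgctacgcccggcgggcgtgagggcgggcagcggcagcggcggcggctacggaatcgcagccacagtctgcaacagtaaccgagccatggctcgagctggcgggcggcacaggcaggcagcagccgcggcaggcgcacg
The 6 letters began 62 bases before the gene start in Gja10, 50 bases before it in Lhx1 and 140 bases before it in Onecut1, and 7.51% of all 32851 windows in the RefSeq table held them. The RefSeq model of Gja10 starts at the coding sequence, so its window lies upstream of the start codon and need not be the promoter. The longer letters TGACGTGG, which contain TGACGT and were in 0.676% of all windows on either strand, were in none of the member windows read, and TGACGT was in neither Prox1 window. No binding was measured in these libraries, so the matches are a description of the letters only.

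Expression was given as FPKM, fragments scaled to transcript length and to the mapped fragments of the library, which allows levels of different genes to be set side by side. The members fell into a high and a low tier. Prox1 and Calb1 averaged between 24.8 and 31.4 FPKM in the 4 groups. Gja10, Lhx1 and Onecut1 averaged between 1.59 and 2.77 FPKM. Onecut2 was lowest, with group means between 0.668 and 0.860 FPKM. In whole retina these values pool all cell types, and fewer cells of a type cannot be told apart from less RNA per cell.

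The libraries themselves differed in more than the labels. FPKM summed to between 410599 and 456250 per library, which is no measure of depth, and the relative depth of the libraries could not be read from the 2 decimals given: at most 14 low genes of a library shared a step. Atf6 RNA was between 14.61 and 16.05 FPKM in Atf6+/+ OIR and between 13.57 and 16.83 FPKM in Atf6-/- OIR libraries, so total Atf6 RNA did not separate the genotypes. The paper attributes the absence of Atf6 protein in these mice to an early stop codon, and protein was not measured in these libraries. Of the OIR libraries, Atf6+/+ replicate 4 and Atf6-/- replicate 5 lay furthest from the rest of their groups. Their median absolute log2 distance from the group's other libraries was 0.196 and 0.188, against 0.0764 to 0.122 in the other OIR libraries. Of the saline libraries, replicates 4 and 5 stood apart. Their summed FPKM of 14 rod genes was 21460 and 20490 against 27390 to 30670 in the other 3. Summed lens fibre genes ranged from 72.91 to 702.8 FPKM in Atf6+/+ OIR, from 73.6 to 95.2 in Atf6-/- OIR, from 73.22 to 6849 in saline and from 162.8 to 11380 in Ceapin-A7 libraries, although the lens had been removed.

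Gja10 was higher in every Atf6-/- OIR library than in every Atf6+/+ OIR library, and Calb1 and Prox1 were higher on average in Atf6-/- OIR, while Lhx1 was not. Gja10 averaged 2.77 ± 0.28 FPKM in Atf6-/- OIR against 1.99 ± 0.23 in Atf6+/+ OIR (SD, n = 5). The remaining transcription factors, Onecut1 and Onecut2, overlapped widely between the genotypes.

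Gja10 was measured at 1.84, 2.22, 2.21, 1.98 and 1.69 FPKM in the Atf6+/+ OIR libraries. In the Atf6-/- OIR libraries it was at 2.71, 2.89, 2.31, 2.99 and 2.96 FPKM. The groups did not overlap, although the lowest Atf6-/- library, replicate 3, was close to the highest Atf6+/+ library, replicate 2. The log2 difference was 0.48 ± 0.11 (SE), a fold of 1.39. It stayed between 0.43 and 0.55 when any of the 10 libraries was left out. Over the other alternatives of processing it was between 0.35 and 0.52, the lowest with a pseudocount of 1.

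Calb1 was at 19.76, 25.42, 26.92, 26.66 and 24.99 FPKM in Atf6+/+ OIR libraries. It was at 31.2, 29.07, 28.76, 29.46 and 25.49 FPKM in Atf6-/- OIR libraries. As deposited, 4 of the 5 Atf6-/- libraries lay above every Atf6+/+ library and replicate 5 lay inside their range, whereas after rescaling between libraries the groups no longer overlapped. The log2 difference was 0.24 ± 0.079 (SE), a fold of 1.18. Without Atf6+/+ replicate 1, the lowest library, the log2 difference was 0.17.

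Prox1 was at 24.16, 29.67, 23.41, 23.11 and 27.52 FPKM in Atf6+/+ OIR and at 29.77, 26.53, 29.72, 31.4 and 27.49 FPKM in Atf6-/- OIR libraries. The Atf6-/- libraries were closely spaced, and 3 of them lay above every Atf6+/+ library. The log2 difference was 0.20 ± 0.086 (SE).

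Of the low-level factors, Lhx1 went the other way on average, at 2.16, 3.11, 2.49, 1.75 and 3.17 FPKM in Atf6+/+ OIR and 2.01, 2.31, 2.75, 1.6 and 2.72 FPKM in Atf6-/- OIR. The ranges overlapped in nearly their whole extent, and the log2 difference was -0.13 ± 0.19 (SE). Onecut1 was between 1.33 and 1.93 FPKM in Atf6+/+ OIR and between 1.58 and 2.04 in Atf6-/- OIR, a log2 difference of 0.12 ± 0.14 (SE). Onecut2 was between 0.52 and 0.77 FPKM against 0.6 and 0.92, a log2 difference of 0.14 ± 0.15 (SE). For these 3 genes the difference was smaller than its standard error.

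**Figure D1:**
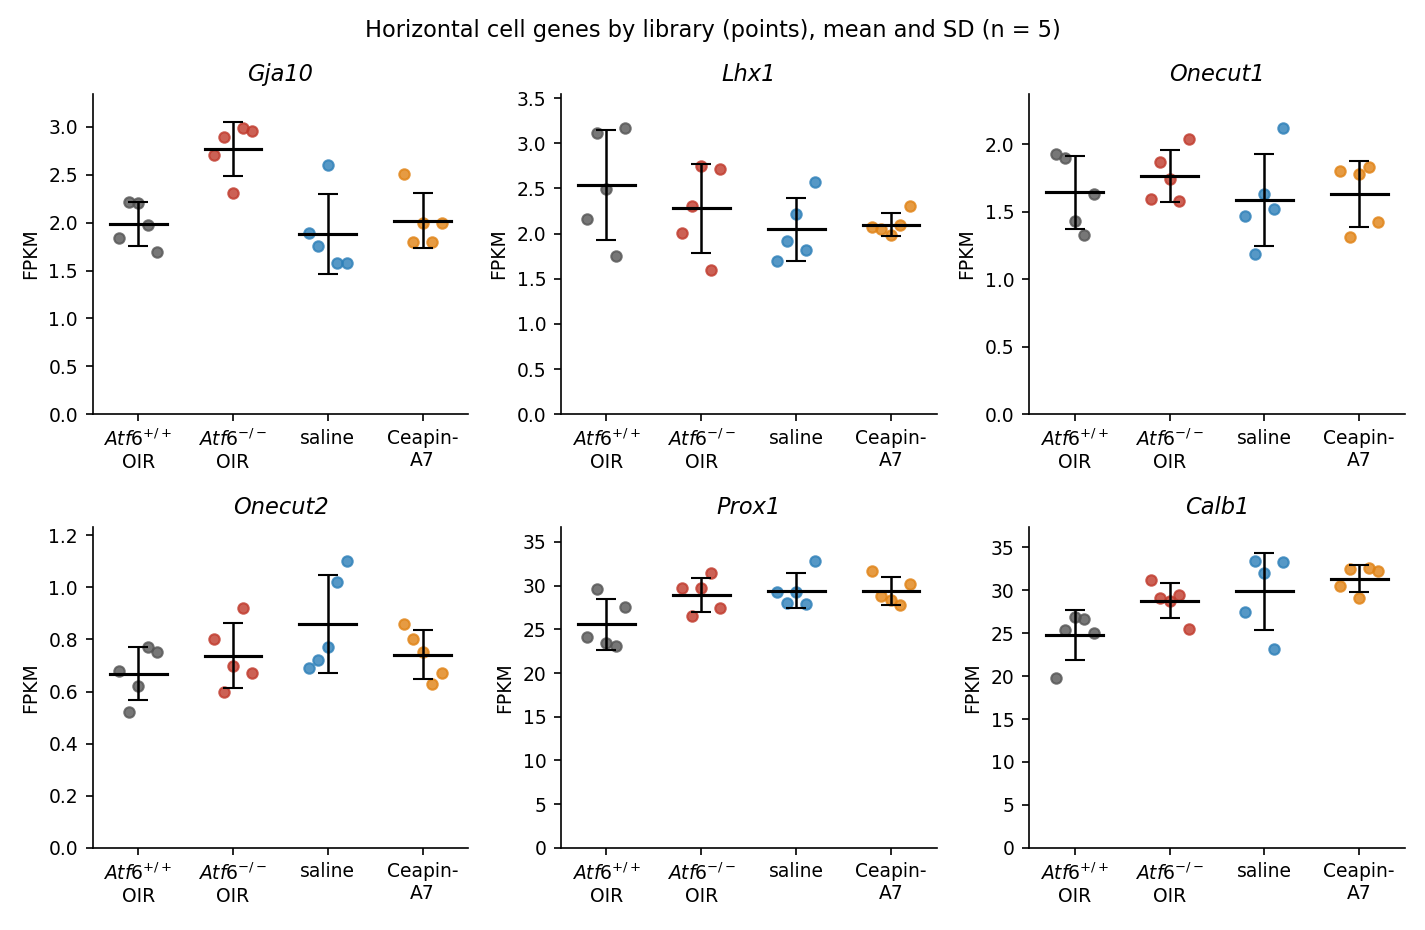
FPKM of the 6 horizontal cell genes, a panel for each gene, in the 4 groups on the x axis. Points are single libraries in replicate order, the horizontal bar is the group mean and the whisker is 1 SD (n = 5). The 5 Atf6-/- OIR points of Gja10 sit between 2.31 and 2.99 FPKM, all above the Atf6+/+ OIR points, while the groups overlap for every other gene as deposited.

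Over the 6 members, 5 had a log2 difference above 0 and the median was 0.171, beside 50.7% above 0 and a median of 0.00283 for all 15704 genes tested. By limma, 5 of these 15704 genes passed an adjusted p under 0.05, or 0.0318%, a count that rose to 2769 when libraries were weighted by their noise. On rescaled values 1.11% of all genes were without overlap and higher in Atf6-/- OIR, among them Gja10 and Calb1. Because the list was chosen with this contrast known, these counts were not read as a result about the members.

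The OIR difference of a gene also went with the base composition of its transcript. Across all genes with a GC content (98.4%), the Spearman correlation of the log2 difference with GC content was -0.476, given as a description. Transcript GC content was 36.78% for Calb1, 42.6% for Onecut2, 44.78% for Gja10, 45.32% for Prox1, 49.68% for Onecut1 and 53.35% for Lhx1. In the same order, the log2 differences were 0.24, 0.14, 0.48, 0.20, 0.12 and -0.13. After each library's trend with GC content was removed, the difference was 0.41 for Gja10, 0.14 for Prox1, 0.12 for Onecut1, 0.10 for Calb1, 0.05 for Onecut2 and -0.07 for Lhx1. The part of base composition in these differences was not tested.

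**Figure D2:**
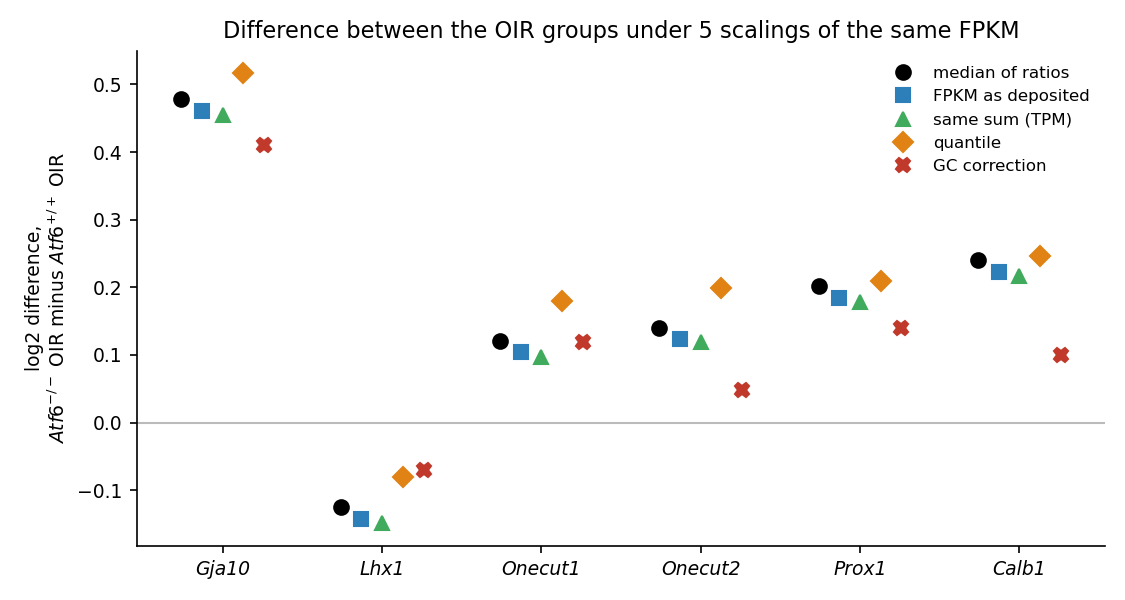
Log2 difference of Atf6-/- OIR minus Atf6+/+ OIR (y axis) for the 6 genes (x axis) under 5 scalings of the same FPKM, a symbol for each scaling. Gja10 lies between 0.41 and 0.52 under all of them, Calb1 moves from 0.24 to 0.10 with the GC correction, and no gene changes sign.

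Markers of other cell types moved in the same comparison, and their part in the members' differences was not tested. All 14 rod genes and all 10 cone genes had log2 differences above 0. At an unadjusted p no higher than 0.05, 4 rod and 3 cone genes were higher. Of all genes, 6.94% were higher and 5.81% lower at that p. Summed rod genes were between 24320 and 27760 FPKM in Atf6+/+ OIR and between 26710 and 30300 in Atf6-/- OIR. The retinal pigment epithelium list had 10 of 11 genes above 0, 5 of them higher at that p, with sums of 45.02 to 146.5 against 108.8 to 327.6 FPKM. Among endothelial genes 1 of 12 was above 0 and 3 were lower at that p, with sums of 137.7 to 209.8 against 127.6 to 177.9 FPKM. Of 13 lens fibre genes tested 10 were lower at that p. None of the marker lists held a gene that passed an adjusted p under 0.05.

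Amacrine and ganglion cell genes, the lists that share Calb1 or Onecut expression with horizontal cells, were more evenly spread. For 13 amacrine genes the median log2 difference was -0.05, with 1 higher and 1 lower at an unadjusted p no higher than 0.05. For 12 ganglion cell genes it was 0.02, with 2 higher, and for 13 bipolar genes it was 0.075, with 1 higher. Summed amacrine genes were between 577.5 and 615.4 FPKM in Atf6+/+ OIR and between 577.9 and 630.7 in Atf6-/- OIR. For 10 Muller glia genes the median was 0.07, with 2 higher. These counts stand beside 6.94% of all genes higher and 5.81% lower.

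The other known genes of horizontal cells were split in direction. Of 15 further genes, 12 were tested, 5 of these had a log2 difference above 0 and the median log2 difference was -0.09, with none past an adjusted p under 0.05. At an unadjusted p no higher than 0.05 1 was higher and 2 were lower, beside 6.94% of all genes higher and 5.81% lower. The higher gene was Septin4, a septin that stains horizontal cells, at 125.8 ± 4.9 FPKM in Atf6+/+ OIR and 142.5 ± 4.6 in Atf6-/- OIR, without overlap (log2 difference 0.20, limma adjusted p = 0.358). The lower genes included Nefh, a neurofilament subunit that ganglion cells also carry (53.0 to 45.6 FPKM, limma adjusted p = 0.362). Ptf1a and Foxn4, which specify the lineage in the embryo, averaged no more than 0.068 FPKM in any group.

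Receptors and feedback machinery were split evenly, with 6 of 12 genes above 0. Of these 12 genes none passed an adjusted p under 0.05. At an unadjusted p no higher than 0.05, 1 was higher and 2 were lower, beside 6.94% and 5.81% of all genes. Gria4, an AMPA receptor subunit, was at 21.4 FPKM in Atf6+/+ OIR and 24.3 in Atf6-/- OIR (limma adjusted p = 0.372). Stx4a, a syntaxin found at horizontal cell tips, was at 19.4 and 16.2 FPKM (adjusted p = 0.358). Panx2, a pannexin channel, was at 17.99 and 13.18 FPKM (adjusted p = 0.364). Slc32a1, the vesicular GABA transporter, varied from library to library, at 47.0 ± 10.5 and 34.7 ± 11.7 FPKM (adjusted p = 0.420), and was named after its values had been seen.

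The P30 experiment asked whether chemical block of ATF6 alters unfolded protein response genes without the oxygen changes of OIR, and here its libraries are read for the horizontal cell genes. None of the 6 horizontal cell genes was called, and all 6 had log2 differences between -0.17 and 0.11. Across all genes tested by limma, 0 of 15408 (0%) passed an adjusted p under 0.05, 1 did so in a fit of all 20 libraries, and 1595 (10.4%) had an unadjusted p no higher than 0.05. At that unadjusted p 0 of the 6 members was counted.

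Gja10 was at 1.89, 1.76, 2.6, 1.58 and 1.58 FPKM in saline libraries and at 2.51, 1.8, 2, 1.8 and 2 FPKM in Ceapin-A7 libraries. Each group held a single library near 2.5 FPKM, replicate 3 of saline and replicate 1 of Ceapin-A7, and the rest lay at 2 or below. The log2 difference was 0.11 ± 0.15 (SE), with a 95% interval from -0.21 to 0.44 (limma adjusted p = 0.786). In fold, the interval ran from 0.863 to 1.35. The difference between this contrast and the OIR contrast was not tested.

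Lhx1 was at 1.7, 1.92, 2.22, 1.82 and 2.57 FPKM in saline and 2.07, 2.05, 1.98, 2.09 and 2.31 FPKM in Ceapin-A7 libraries. The treated libraries were tightly spaced, with a coefficient of variation of 5.93% against 17.1% in saline, and the log2 difference was 0.05 (95% interval -0.19 to 0.29, limma adjusted p = 0.878). Onecut1 lay between 1.19 and 2.12 FPKM in saline and between 1.31 and 1.83 in Ceapin-A7 libraries (log2 difference 0.05, interval -0.27 to 0.36, adjusted p = 0.921). None of these treated libraries fell outside the saline range.

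Onecut2 was at 0.69, 0.72, 0.77, 1.02 and 1.1 FPKM in saline and at 0.86, 0.8, 0.75, 0.63 and 0.67 FPKM in Ceapin-A7 libraries. The highest saline values belonged to replicates 4 and 5, the libraries with low rod sums, and 2 Ceapin-A7 libraries lay below every saline library. The log2 difference was -0.17 (95% interval -0.50 to 0.15, limma adjusted p = 0.659). With both of those saline libraries left out it was 0.0055.

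Prox1 was nearly level, at 29.4 ± 2.0 FPKM in saline and 29.4 ± 1.6 in Ceapin-A7 libraries. Its log2 difference was -0.0022 with a 95% interval from -0.12 to 0.11 (limma adjusted p = 0.990), the narrowest among the members. In fold, that interval ran from 0.921 to 1.08. Calb1 was at 29.9 ± 4.5 FPKM in saline and 31.4 ± 1.6 in Ceapin-A7 libraries, a log2 difference of 0.08 (interval -0.13 to 0.30, adjusted p = 0.754). Saline replicate 4 held the lowest Calb1, 23.15 FPKM, and without it the log2 difference was -0.01.

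The saline libraries with low rod sums also held the lowest Gja10. Sorted by summed rod genes, at 20490, 21460, 27390, 29740 and 30670 FPKM, the saline libraries had Gja10 at 1.58, 1.58, 1.89, 1.76 and 2.6 FPKM. In Ceapin-A7 libraries the rod sum was between 28280 and 30620 FPKM. With saline replicates 4 and 5 left out, the log2 difference of Gja10 turned from 0.11 to -0.05, and those of all 6 members lay between -0.05 and 0.16. The part of photoreceptor content in these values was not tested.

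**Figure D3:**
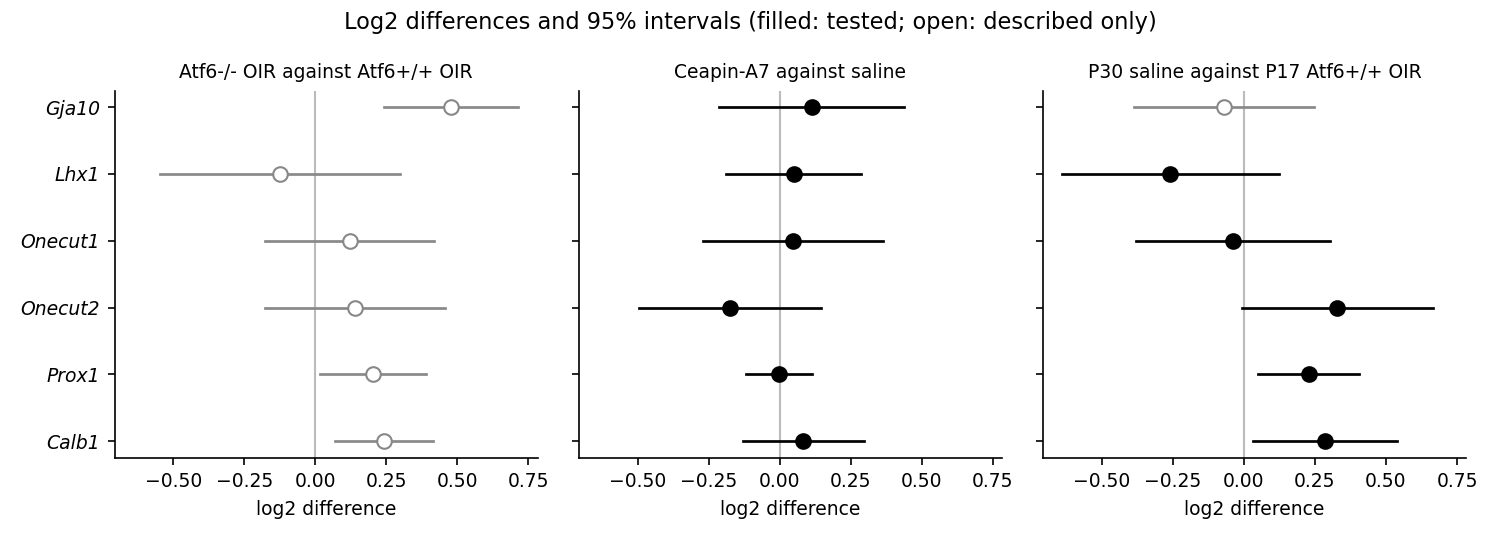
Log2 difference (points, x axis) with its 95% interval (lines) for the 6 genes in the 3 comparisons, a panel each. Filled points were tested and open points are described only. The members were chosen with the OIR contrast known, so whether an interval of that panel crosses 0 is no test. Every interval of the Ceapin-A7 panel crosses 0, and the point of Gja10, at 0.11 there, stands at 0.48 in the OIR panel.

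No gene of the wider horizontal cell lists was called after Ceapin-A7 either. Of 13 further horizontal cell genes tested, none had an unadjusted p no higher than 0.05, beside 10.4% of all genes, and the median log2 difference was -0.02. The 3 with the smallest p were Tfap2a, a transcription factor of horizontal and amacrine cells (11.1 FPKM in saline and 10.3 in Ceapin-A7, limma adjusted p = 0.628), the tropomyosin Tpm3 (60.4 and 56.0 FPKM, adjusted p = 0.639) and Nefh (35.8 and 39.0 FPKM, adjusted p = 0.651). Of 12 receptor and feedback genes, 1 was lower at an unadjusted p no higher than 0.05, beside 5.31% of all genes. It was Gria3, an AMPA receptor subunit, at 7.95 ± 1.1 FPKM in saline and 6.87 ± 0.49 in Ceapin-A7 libraries (log2 difference -0.20, limma adjusted p = 0.474).

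Among other cell types, cone genes had 6 of 10 higher at an unadjusted p no higher than 0.05, beside 5.04% of all genes, and a median log2 difference of 0.22, and rod genes had 1 of 14 higher and a median of 0.17. Muller glia genes had 2 of 10 higher and 1 lower, bipolar genes 2 of 13 higher and 1 lower, retinal pigment epithelium genes 3 of 11 higher and 2 lower, and endothelial genes 1 of 12 higher. No amacrine, ganglion cell or lens fibre gene reached that p, although all 16 lens fibre genes were above 0 on average. None of these lists held a gene past an adjusted p under 0.05. Saline replicates 4 and 5 had the lowest rod sums, 21460 and 20490 FPKM, against 28280 to 30620 in Ceapin-A7 libraries. With both left out, 769 genes in place of 1595 had an unadjusted p no higher than 0.05. The part of photoreceptor content in the rod and cone differences was not tested.

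Levels in P30 saline and P17 Atf6+/+ OIR libraries were also set against each other, which is no comparison of the study. Both groups are wildtype, but age, OIR, injection and experiment cannot be told apart in it, and it shares its libraries with the other comparisons. Its Atf6+/+ OIR values were known when the members were chosen, so the members' p-values here are not independent of that choice. Prox1 was higher at P30 and was the only member called among the 5 tested. It averaged 25.6 ± 2.9 FPKM in Atf6+/+ OIR and 29.4 ± 2.0 in saline, a log2 difference of 0.23 ± 0.082 (SE, limma adjusted p = 0.0328). Across all 15655 genes tested, 55.5% were called, 27.9% higher and 27.7% lower, so a call for 1 of 5 members was no more than the background.

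The Prox1 call did not hold throughout. It was lost on leaving out replicate 1, 3 or 4 of Atf6+/+ OIR or replicate 1, 3 or 5 of saline, with adjusted p between 0.0537 and 0.0833 and log2 differences from 0.18 to 0.23, and with the GC correction, at 0.12 (adjusted p = 0.294). Sorted by summed lens fibre genes, markers of a cell type that makes Prox1, at 73.22, 86.14, 2232, 2265 and 6849 FPKM, the saline libraries had Prox1 at 29.29, 32.78, 27.85, 27.98 and 29.27 FPKM. The part of lens RNA in the Prox1 difference was not tested.

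Calb1 averaged 24.8 ± 2.9 FPKM in Atf6+/+ OIR and 29.9 ± 4.5 in saline without being called (log2 difference 0.29, limma adjusted p = 0.0546), and 4 of 5 saline libraries lay above every Atf6+/+ OIR library. Without saline replicate 4 the difference was 0.38 (adjusted p = 0.00541). Onecut2 was at 0.668 ± 0.10 and 0.860 ± 0.19 FPKM (log2 difference 0.33, adjusted p = 0.0895). Lhx1 was at 2.54 ± 0.61 and 2.05 ± 0.35 FPKM (-0.26, adjusted p = 0.227, and -0.39 with adjusted p = 0.0472 without Atf6+/+ OIR replicate 4). Onecut1 was at 1.64 ± 0.27 and 1.59 ± 0.34 FPKM (-0.04, adjusted p = 0.851). Gja10, not tested here, was at 1.99 ± 0.23 and 1.88 ± 0.42 FPKM.

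In order of level over the 4 groups, Gja10 ran from saline through Atf6+/+ OIR and Ceapin-A7 to Atf6-/- OIR. Only its last step, 0.75 FPKM, exceeded the larger SD of the neighbouring groups, 0.291, and even there the ranges overlapped. For Prox1 and Calb1 the lowest group was Atf6+/+ OIR, and of the neighbouring steps only that from it to Atf6-/- OIR, 3.41 and 4.05 FPKM, exceeded the larger SD, 2.89 and 2.91. Saline and Ceapin-A7 averaged above Atf6-/- OIR for both genes, and so lay still further above Atf6+/+ OIR. For Lhx1, Onecut1 and Onecut2 no neighbouring groups differed by more than that spread. The ranges of neighbouring groups overlapped at every step, and since the OIR difference of Gja10 helped to choose it, its order is a description.

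Other genes of the horizontal cell lists were called between these groups in both directions. Of 13 further horizontal cell genes, 4 were called lower in P30 saline, beside 27.7% of all genes, and none higher, beside 27.9%. They included Septin4 (125.8 to 89.2 FPKM), Nefh (53.0 to 35.8) and Nefm (71.6 to 53.3), with limma adjusted p between 0.000672 and 0.0186. Of 12 receptor and feedback genes, 3 were called higher and 2 lower, beside 27.9% and 27.7% of all genes, so these counts were no more than the background. The AMPA receptor subunit Gria2 was at 22.5 FPKM in Atf6+/+ OIR and 32.0 in saline, and Gad1, which makes GABA, at 68.6 and 99.5. In the same order, the channel gene Panx1 was at 5.84 and 3.88 FPKM and the synaptic gene Snap25 at 492.5 and 325.9.

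The other cell type lists also held called genes, to be read beside the 55.5% called of all genes. Called higher and lower were 5 and 1 of 13 amacrine genes, 3 and 3 of 13 bipolar genes, 2 and 5 of 12 ganglion cell genes, 2 and 4 of 14 rod genes, 2 and 1 of 10 cone genes, and 1 and 3 of 10 Muller glia genes. Of 11 retinal pigment epithelium genes 5 were called higher and of 12 endothelial genes 9 were called lower, while no lens fibre gene was called.

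Gja10 averaged below Gjd2, Gja1 and Gjc1 in all 4 groups. Besides Gja10, 4 connexins averaged at least 1 FPKM in every group. Gjd2, the neuronal connexin of AII amacrine cells and photoreceptors, was the highest, at 33.7 ± 2.1 FPKM in Atf6+/+ OIR, 33.6 ± 1.3 in Atf6-/- OIR, 49.7 ± 2.6 in saline and 50.5 ± 2.0 in Ceapin-A7 libraries. Gjd2 was called higher in P30 saline than in P17 Atf6+/+ OIR (log2 difference 0.58, limma adjusted p = 1.68e-05), while Gja10 averaged 1.88 FPKM in saline and 1.99 in Atf6+/+ OIR. In that comparison 55.5% of all genes were called, and age, OIR, injection and experiment cannot be told apart.

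Gjc1, found in bipolar cells and vessel walls, was at 7.93 ± 0.65 and 7.17 ± 1.1 FPKM in Atf6+/+ and Atf6-/- OIR. It was at 6.02 ± 0.36 FPKM in saline, called lower than in Atf6+/+ OIR (log2 difference -0.37, limma adjusted p = 0.00122). Gja4, an endothelial connexin, was at 5.73 ± 2.0 FPKM in Atf6+/+ OIR and 1.51 ± 0.33 in saline, also called lower (-1.80, adjusted p = 3.98e-05). Gja1, made by astrocytes and pigment epithelium, was at 7.57 ± 1.9 and 10.7 ± 3.5 FPKM in the OIR groups (log2 difference 0.49, limma adjusted p = 0.376) and varied between 1.76 and 37.25 FPKM at P30. Gja1 thus had an OIR difference as large as that of Gja10, with a spread that overlapped.

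Of the other connexins, Gja3, a lens fibre connexin, averaged over 1 FPKM only at P30, at 1.83 ± 3.7 FPKM in saline and 2.28 ± 3.1 in Ceapin-A7 libraries, with an SD above the mean in both. Of 19 connexins beside Gja10, none passed an adjusted p under 0.05 in the OIR or Ceapin-A7 comparison. At an unadjusted p no higher than 0.05, 1 of 10 tested was higher in OIR, beside 6.94% of all genes. After Ceapin-A7 none of 13 was counted at that p, beside 10.4% of all genes. Between P30 saline and P17 Atf6+/+ OIR, 1 of 11 was called higher and 3 lower, beside 27.9% and 27.7% of all genes. The third called lower was Gjb1, at 0.246 FPKM in Atf6+/+ OIR and 0.122 in saline (limma adjusted p = 0.0366).

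**Figure D4:**
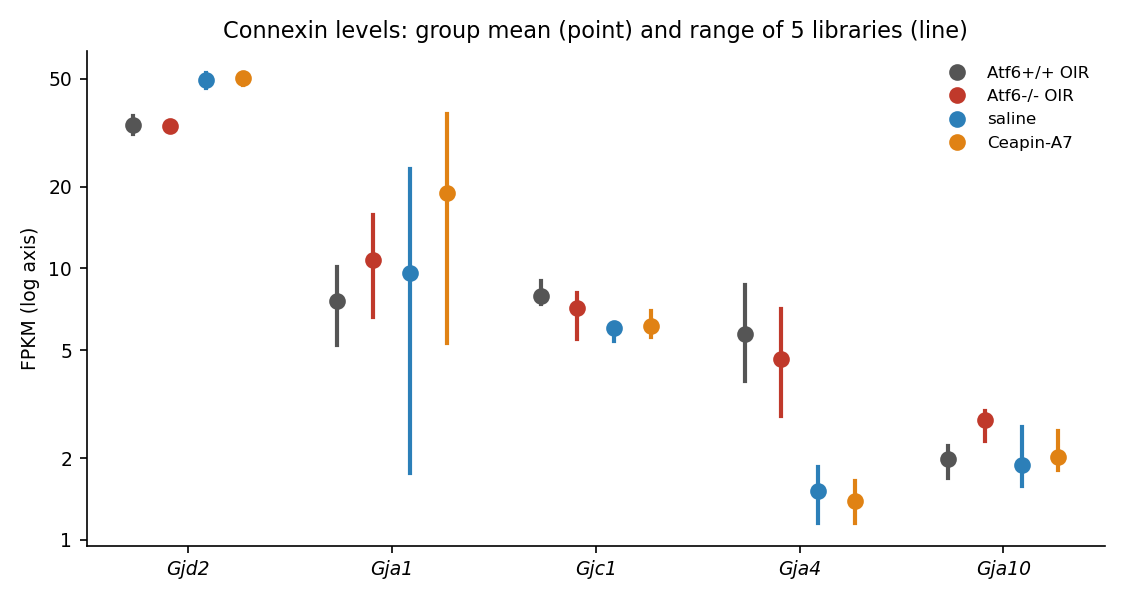
FPKM (y axis, log scale) of the 4 other connexins with a mean of at least 1 FPKM in every group and of Gja10, in the 4 groups. Points are group means and lines the range of 5 libraries. Gja10 has its highest mean, 2.77 FPKM, in Atf6-/- OIR, while Gjd2 is level within each experiment and near 50 FPKM only at P30.

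Pairs of members were correlated from library to library to very different degrees. With each group's mean removed, Pearson correlations of log2 values over the 20 libraries were highest for Lhx1 with Onecut1, 0.518, for Lhx1 with Prox1, 0.466, and for Onecut1 with Prox1, 0.352. Gja10 had correlations from -0.241 with Onecut2 to 0.216 with Calb1. These values are a description, since the genes of a library share its depth and base composition. Set against the mean log2 level of the other 5 members in its own library, Gja10 was at -1.16 ± 0.22 in Atf6+/+ OIR, -0.78 ± 0.19 in Atf6-/- OIR, -1.35 ± 0.37 in saline and -1.23 ± 0.15 in Ceapin-A7 libraries. The ratio of Onecut1 to Onecut2 FPKM was 2.54 ± 0.74, 2.47 ± 0.62, 1.86 ± 0.29 and 2.22 ± 0.46 in the same order, and its ranges overlapped between all groups. Set against the other 5 members, Gja10 ranged from -1.52 to -0.944 in Atf6+/+ OIR and from -1.09 to -0.634 in Atf6-/- OIR. These ranges overlapped too, and the measure is a description because it uses the OIR values that helped to choose Gja10.

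The genes whose library-to-library pattern was most like Gja10, among 12435 genes with at least 1 FPKM in every group, were Bckdha, a subunit of the branched-chain ketoacid dehydrogenase (0.721), Mxd4, a partner of MAX (0.705), Paqr6 (0.694), Pdyn, which encodes prodynorphin (0.691), and Rangrf (0.686). None is a marker in the lists used here. The 99th percentile of all genes was 0.538 for Gja10, and between 0.654 and 0.742 for the other members, so Gja10 had the lowest such values of the 6. Lhx1 was most like Sema7a (0.838), the sodium-calcium exchanger Slc8a3 (0.836) and Onecut3 (0.831), a further Onecut factor, at 1.42 ± 0.40 FPKM in Atf6+/+ OIR and 1.17 ± 0.23 in saline. Onecut1 was most like Scmh1 (0.856), Trim32 (0.812) and Rhob (0.804), and Onecut2 was most like Dop1a (0.862), Nktr (0.819) and LOC115489981 (0.808). Prox1 was most like Pias3 (0.884), Trib2 (0.854) and Hspa12a (0.848). Calb1 was most like the potassium channel gene Kcnd2 (0.900), the contactin gene Cntn6 (0.876) and Scgn, a calcium-binding protein of cone bipolar cells (0.871).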

How the data were processed

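The authors sequenced stranded mRNA libraries of whole retina and, per the labels' processing notes, used HISAT2 (version 2.0.4), RSEM (version 1.2.18), DESeq2 (version 1.4.5) and the build GRCm39. The deposited values are FPKM per gene to 2 decimals, 1 table for each group; all per-sample columns were used (0 left out). The 2 tables of each experiment list the same genes, 19368 for OIR and 19102 for P30. The methods name only 1 read number for all samples, and the depth of each library could not be read from these values, so no count model or counting interval was used. The authors' DESeq2 threshold, an unadjusted p of 0.05, stands beside the adjusted one.

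FPKM of the 10 libraries of a comparison were divided by median-of-ratios factors, and log2(FPKM + 0.1) was compared by limma (version 3.58.1, eBayes with trend, R version 4.3.3) for genes with a mean FPKM above 0.1. Differences are on that scale, which understates changes of low genes. The Benjamini-Hochberg adjustment ran over every gene of the fit, and called genes had an adjusted p under 0.05. On simulated data with 200 genes changed 2-fold, 94% were called in the Ceapin-A7 design (15335 genes) and 94% in the OIR design (15637 genes). Only genes with a mean of at least 1 FPKM were changed, and noise was drawn separately for each gene. Changes as small as those of the members were not simulated, so the share called does not apply to them.

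The members, the gene lists and the tests were chosen with earlier results of these data known. Lists were markers of amacrine, bipolar, ganglion, rod, cone, Muller glia, lens fibre, retinal pigment epithelium and endothelial cells, further horizontal cell genes, horizontal cell receptor and feedback genes, and connexins; 4 of the 15 further horizontal cell genes also stand in another list. Genes named are the members, the called genes of a horizontal cell or connexin list (at most 4) or else the 3 with the smallest p, connexins with a mean of at least 1 FPKM in any group, and the genes most correlated with each member (5 for Gja10, 3 for the others). Of the other cell types, counts and sums are given in place of names. Some genes that this rule selects are not reported here.

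Alternatives were pseudocounts of 1 and 0.01, filters, scalings, no trend, array weights, all 20 libraries in the fit, the replicate number as a block, a GC correction (lowess, span 0.3, with transcript GC content by symbol from a GRCm38 annotation, found for 98.4% of genes in OIR and 98.5% after Ceapin-A7) and leaving out each library. The block with the GC correction and the fit without saline replicates 4 and 5 were added after seeing the data.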

Additional observations from a re-analysis of the deposited data

Results flagged for a closer look

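In each of 24 groups, the libraries of a member within a treatment or genotype, the gap of the highest or lowest library to its nearest neighbour was set against the range of the group. It exceeded 0.71 of the range, Dixon's limit for 5 libraries, in 2 groups, and chance alone exceeds it in about 1 of 20. Calb1 in Atf6+/+ OIR replicate 1 was at 19.76 FPKM, with a gap of 0.73 of the range below the other libraries. Gja10 in Ceapin-A7 replicate 1 was at 2.51 FPKM, with a gap of 0.718 of the range above the others.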

How the results depend on the processing

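For Ceapin-A7 against saline no member was called under any alternative, and 1 gene was called in the fit of all 20 libraries. The near-zero difference of Prox1 changed sign with quantile normalization (0.0014), with array weights (0.0075) and without both saline libraries with low rod sums (0.0073), as did those of Gja10 (-0.048) and Onecut2 (0.0055) in the last of these. Leaving out 1 library gave 0.031 to 0.23 for Gja10, -0.0082 (without saline replicate 1) to 0.12 for Lhx1, -0.038 (without saline replicate 2) to 0.14 for Onecut1, -0.24 to -0.095 for Onecut2, -0.034 to 0.030 for Prox1 and -0.011 (without saline replicate 4) to 0.13 for Calb1.

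For OIR, 9 genes were called with no filter, 2769 with array weights, 11 in the fit of all 20 libraries and 8 with the GC correction, and 5 to 9 with 1 library left out, the highest without Atf6-/- replicate 5. Calb1 had a log2 difference of 0.0997 with the GC correction, alone or with the replicate block, and no member changed direction.

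For P30 saline against P17 Atf6+/+ OIR, Prox1 was no longer called with quantile normalization (0.19), array weights (0.17), the GC correction (0.12, and 0.12 with the replicate block) and without both saline libraries (0.22). Calb1 was called with the same sum per library (TPM, 0.31), array weights (0.27), all 20 libraries (0.28), the replicate block (0.29) and without both saline libraries (0.37), as were Onecut2 with quantile normalization (0.64) and Lhx1 with array weights (-0.42). Onecut1 changed sign with quantile normalization (0.18), and so did Gja10, which was not tested, with quantile normalization (0.097) and without both saline libraries (0.094). Leaving out 1 library gave 0.18 to 0.28 for Prox1, 0.21 to 0.38 for Calb1, -0.39 to -0.17 for Lhx1, -0.14 to 0.046 for Onecut1 (above 0 without Atf6+/+ OIR replicate 1 or 2 or saline replicate 2), and 0.25 to 0.40 for Onecut2. The causes were not tested.

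The replicate numbers did not pair the libraries: same-numbered libraries deviated from their group means with correlations between -0.258 and 0.21 in OIR, -0.217 and 0.31 in the Ceapin-A7 experiment and -0.325 and 0.194 between P17 and P30. The replicate block changed no other call of a member. The depth of each library could not be read from the files, and 2 decimals limit Onecut2.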
